A study of Mus musculus with 36 samples.

Results

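Adding a single ligand, Wnt5a, to mouse intestinal organoids was examined by comparing 6 libraries labelled Wnt5a+IgG with 6 labelled Complete culture media+IgG, which are 12 of the 36 libraries of the series. Both groups were grown from jejunal crypts of C57BL/6 mice in complete media, the commercial medium Intesticult, and both received the control antibody IgG, so that they differ by the ligand. The crypts that founded the cultures came from 6 mice, and the labels number the libraries of each group 1 to 6 without saying which number is which mouse. The other 24 libraries, from media conditioned by quiescent or senescent fibroblasts (QCM and SCM) and from cultures with an antibody against the receptor Ptk7, entered the model that estimates the spread, and SCM + IgG alone is set beside the ligand. The dose and preparation of the ligand are not given in the labels, none of the 36 libraries comes from organoids without antibody, and every value is an average over all cells of a culture, in which fewer cells of a type and less RNA per cell cannot be told apart.

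Wnt5a is a secreted lipid-modified protein that acts mostly through the noncanonical Wnt branches, in which receptors such as Ror2, Ryk, Ptk7 and Frizzled proteins signal to small GTPases, the actomyosin cytoskeleton and calcium instead of stabilizing β-catenin. The canonical branch, driven in crypts by Wnt3 and its relatives, maintains the Lgr5-positive stem cells. Noncanonical Wnt signals can also act on YAP and TAZ, coactivators that enter the nucleus, bind TEAD transcription factors and turn on genes of adhesion, growth and repair. In the intestine, YAP activity is known for the regenerating epithelium, in which fetal genes such as Clu return. Intestinal organoids are closed epithelial structures that contain stem cells, transit-amplifying cells and differentiated progeny, and hold no mesenchyme.

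The 12 libraries held between 9581589 and 21029769 counts each. Defining markers of an epithelium were abundant, with a summed level of 7 markers between 7179 and 8739 CPM (counts scaled to the size of the library) in complete media and between 10520 and 17150 CPM in Wnt5a. Of 8 fibroblast markers 6 were at 0 in both groups, and the summed level of the list was at most 1.32 CPM in any library. The summed level of 10 immune cell markers lay between 32.6 and 48.6 CPM in complete media and between 30.4 and 43.7 CPM in Wnt5a, none of the 4 tested was called by edgeR, voom or DESeq2, and none had an unadjusted p under 0.05. Wnt5a replicate 1 stood apart from the other 5 of its group. On the second principal component of the 12 libraries, which held 8.72% of the variance, it lay at 54.1 while the others lay between −25.5 and −12.3, and on the first, which held 37.5%, at 81.4 against 19.3 to 56.6. In Wnt5a replicate 1 the 10 most abundant genes held 5.40% of the counts, against 3.62% to 4.34% in the other 5. Replicate 1 of Wnt5a with the antibody against Ptk7 was similar (5.35%). Complete media replicate 1 was the nearest of its group to Wnt5a on the first component, at −17.2 against −58.05 to −25.23. Many of the counts and calls below are also given without Wnt5a replicate 1, with the same-numbered complete media library kept. Replicates were never closer than counting error, so all 12 were kept as separate samples. The p values rest on the spread between libraries within all 6 conditions, which includes any difference that follows the replicate number.

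Most of the genes that differed were higher with the ligand. Of 15497 genes tested, 1285 (8.29%) were called higher and 291 (1.88%) lower, together 10.2%, where called means an adjusted p under 0.05 by the quasi-likelihood test of edgeR and a change of more than 1.5-fold. The rises were also larger than the falls, the median size of the log2 change being 1.19 among genes called higher and 0.79 among those called lower. A change of more than 4-fold was reached by 327 rising and 14 falling genes, and more than 16-fold by 70 rising genes. The share of calls that were rises was 81.5%, and 77.5% with upper-quartile scaling or 75.4% with library size alone in place of TMM. Voom on quantile-normalized values, the study's own method, which changes both the test and the scaling, gave 1015 higher and 562 lower, or 64.4% rises. Without Wnt5a replicate 1 the counts were 987 higher and 182 lower, of which 968 and 167 were among those of all 12 libraries. The 2 groups did not overlap for 1807 genes, which is 11.7% of those tested, and of these 1061 were higher (6.85%) and 746 lower (4.81%) in Wnt5a.

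**Figure D1:**
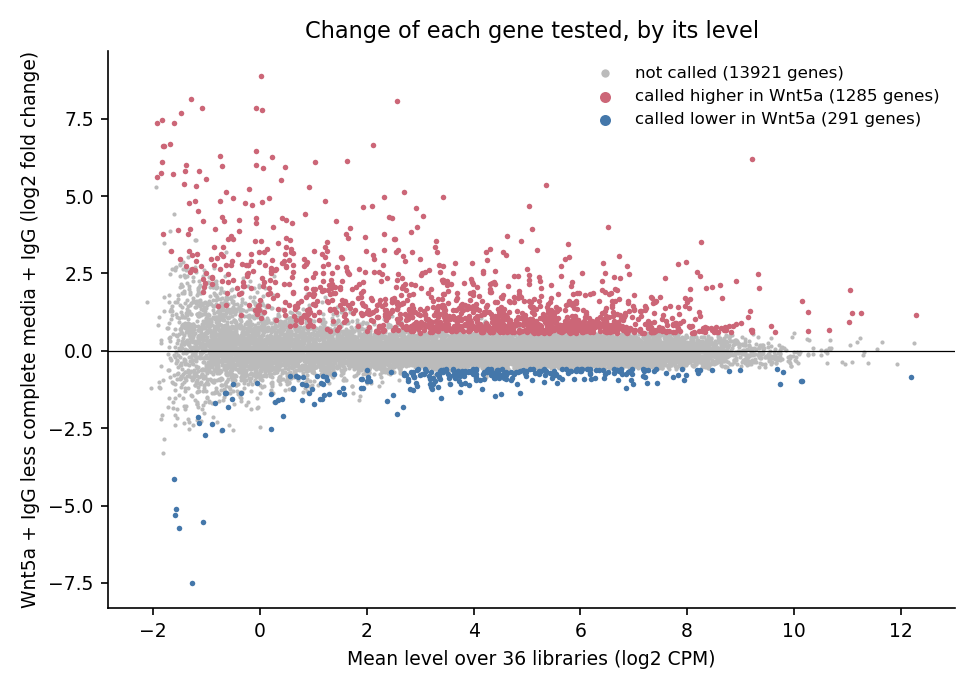
Log2 fold change of each of the 15497 genes tested (Wnt5a + IgG less complete media + IgG, y axis) against its mean level over all 36 libraries (log2 CPM, x axis), with the 1285 genes called higher in red, the 291 called lower in blue and the others in gray. The rises reach further from 0 than the falls at most levels, and the falls farthest from 0 are genes of low level.

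The 15 rising and 10 falling genes named next had the largest changes among called genes with a mean log2 CPM over 1 whose groups did not overlap. Their separation was therefore fixed by the rule. Several of the genes with the largest rises were nearly silent in complete media. Ctse encodes cathepsin E, an aspartic protease of gastric surface cells and M cells (chr1:131638306-131675505, GRCm38). Its level in complete media was 0 CPM at the lowest, 0 at the median and 1.09 at the highest, and in Wnt5a it was 29.25, 41.6 and 133 CPM. The log2 fold change was 8.07 ± 0.912 (SE, n = 6 against 6; edgeR adjusted p = 8.288e-08). Acsbg1, an acyl-CoA synthetase, had 0, 0.157 and 1.09 CPM in complete media and 16.8, 21.9 and 63.8 CPM in Wnt5a, a rise of 6.64 ± 0.817 on the log2 scale (edgeR adjusted p = 3.922e-07). Both genes held few counts in complete media, 16 and 22 over 6 libraries, so the lower level behind each fold change is imprecise.

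Clu combined a large fold change with a high level. It encodes clusterin, a secreted chaperone that marks revival stem cells of the injured intestine (chr14:65968483-65981547). The lowest, median and highest library had 19.8, 41.9 and 101 CPM in complete media and 2260, 2837 and 7382 CPM in Wnt5a. The lowest Wnt5a library was thus above the highest library in complete media by a wide margin, and the log2 fold change was 6.21 ± 0.501 (edgeR adjusted p = 6.213e-11). Within the Wnt5a group, as within complete media, replicates 1 and 5 held the highest levels of Clu (7382 and 4948 CPM in Wnt5a). The mean level of all genes called higher was also highest in these replicate numbers in all 6 conditions. In Wnt5a the same 2 replicates were highest for Ctse, Acsbg1, P2rx2 and Col18a1.

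The other rising genes named by the same rule were of varied function. Jam2, a junctional adhesion molecule, went from 0, 0.22 and 0.752 CPM to 7.07, 11.4 and 43.2 CPM. Lama3, the α3 chain of laminin-332 in the basement membrane, went from 1.25, 3.46 and 10.2 CPM to 84.9, 121 and 367 CPM. As the rule required, neither gene had a Wnt5a library within the range of complete media. Msn, which encodes moesin, a linker of actin to the membrane, had 0, 1.02 and 2.09 CPM in complete media and 19.8, 31.1 and 66.6 CPM in Wnt5a. Vill, a villin-like actin-binding protein, had 1.46, 3.94 and 9.91 CPM and then 75.6, 97.3 and 274 CPM. Col18a1, a basement membrane collagen, had 0.834, 2.195 and 3.38 CPM and then 20.8, 31.3 and 81.1 CPM. The log2 fold changes of these 5 genes lay between 4.36 and 6.13. P2rx2, an ATP-gated ion channel, rose by 4.96 ± 0.46 on the log2 scale, and Nt5e, the ectoenzyme CD73 that makes adenosine from AMP, by 4.85 ± 0.857. Trim29 (5.13), Dok2, an adaptor of receptor tyrosine kinases (4.69), Pmp22, a tetraspan membrane protein (4.63), and Map6, a microtubule-stabilizing protein (4.604), complete the group. Mcpt2, a mast cell protease with closely related neighbors in the genome, also qualified with a log2 fold change of 6.09, but reads of such copies may have been divided among them. All 15 genes kept their call in every alternative processing that tested them.

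The falling genes moved less and started from moderate levels. Rgcc, a regulator of the cell cycle, had 33.2, 37.8 and 39.3 CPM in complete media and 5.88, 13.5 and 19.2 CPM in Wnt5a, with a wider spread in Wnt5a. Its log2 fold change was −1.47 ± 0.189 (edgeR adjusted p = 7.856e-07). Vav3, an exchange factor for small GTPases, had 48.2, 60.8 and 66.5 CPM and then 10.7, 24.4 and 36.8 CPM (log2 fold change −1.35 ± 0.242). Mylk3, a myosin light chain kinase, had 9.66, 15.3 and 21.6 CPM and then 1.23, 4.31 and 7.64 CPM (−1.83 ± 0.358). Ntn4, a netrin of basement membranes, had 14.2, 15.3 and 19.8 CPM and then 1.16, 5.53 and 8.77 CPM (−1.62 ± 0.376). Wnt5a replicates 1 and 5, the highest for Clu, held the 2 lowest levels of each of these 4 genes. The gene model Gm12888 had the largest change under the rule, −2.05 ± 0.399, followed after Mylk3 by Fam198b at −1.71. Glipr2 fell by 1.51, Aldh1l2, a mitochondrial folate enzyme, by 1.42, and Pde8b, a cAMP phosphodiesterase, by 1.40 on the log2 scale. The voltage-gated potassium channel Kcnh3 passed narrowly (−1.55, edgeR adjusted p = 0.0455) and its adjusted p was between 0.0534 and 0.102 without each of 10 of the libraries in turn. Pde8b had an adjusted p of 0.0521 without complete media replicate 3.

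**Figure D2:**
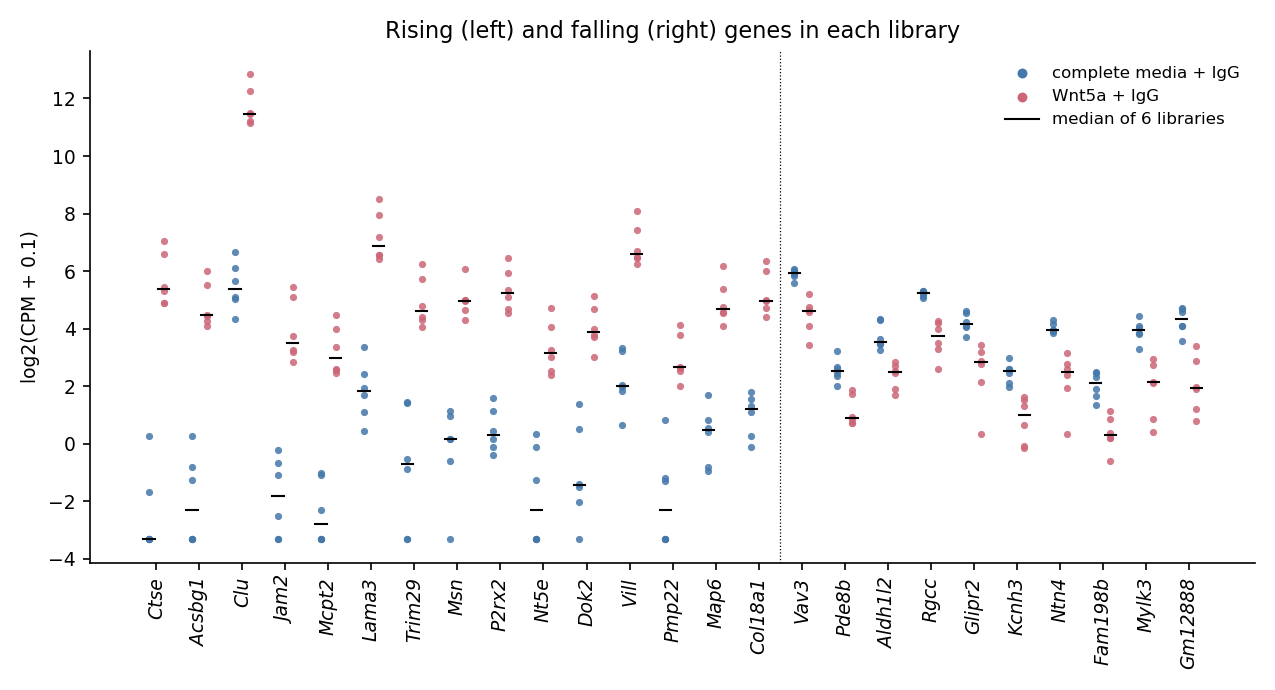
Level of the 15 rising and 10 falling genes in each library (log2 of CPM + 0.1, y axis), with complete media + IgG in blue, Wnt5a + IgG in red and a bar at the median of each 6. No red point overlaps the blue points of the same gene, as the rule for naming them required, and several of the rising genes sit at 0 CPM in some complete media libraries, while Clu has the highest level of them in both groups.

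Among Wnt receptors and co-receptors, 1 of 16 tested was called, which is no more than the 10.2% of all genes, and that was Ptk7, a receptor-like pseudokinase that takes part in planar cell polarity and binds Wnt ligands. Ptk7 had 9.15, 11.3 and 14.1 CPM in complete media and 16.7, 18.8 and 28.4 CPM in Wnt5a. The groups did not overlap, and the log2 fold change was 0.79 ± 0.253 (edgeR adjusted p = 0.0216). The call rested on single libraries, since the adjusted p was 0.0766 without Wnt5a replicate 1, the highest of its group, and 0.0549 without complete media replicate 4. Ror2 and Ryk, the receptors best known for binding Wnt5a, did not pass the test, with means of 42.9 ± 6.39 (SD, n = 6) against 40.7 ± 6.99 CPM for Ror2 and 96.1 ± 14.1 against 87.8 ± 17.3 CPM for Ryk. The Frizzled receptor Fzd5 had a log2 fold change of −0.33 ± 0.106, short of the 1.5-fold cutoff. Ror1 had no count in the 12 libraries. The Wnt5a transcript was too low to test, at 0.176 ± 0.237 CPM in complete media and 0 in all 6 Wnt5a libraries, so the organoids held next to none of their own.

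Of 7 Wnt ligands tested, Wnt7a showed a clear rise, from 0, 1.48 and 2.50 CPM to 14.6, 24.9 and 45.2 CPM (log2 fold change 4.33 ± 0.551, edgeR adjusted p = 6.662e-07). Its groups were separate. Wnt7b was also called, with 4 counts in all of complete media, and lost the call without 9 of the 12 libraries, Wnt5a replicate 1 included (edgeR adjusted p = 0.0523 without it). Wnt3, the Paneth cell ligand of the canonical pathway, had a log2 fold change of −0.55 ± 0.201, short of the cutoff. Of 16 genes of planar cell polarity and Dishevelled tested, 1 was called, or 6.25% beside the 10.2% of all genes. This was Vangl1, a core membrane protein of the polarity complex, which rose from 14.01, 21.7 and 25.9 CPM to 39.6, 47.5 and 92.2 CPM (1.41 ± 0.204, edgeR adjusted p = 5.659e-06). Its relative Vangl2 stood at 17.1 ± 3.69 and 17.7 ± 5.04 CPM.

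Calcium genes, the other noncanonical branch, had 7 of 32 tested called higher and none lower, beside 8.29% of all genes called higher, and 4 were called higher without Wnt5a replicate 1. Nfatc2, a calcium-dependent transcription factor, rose by 2.24 ± 0.392 on the log2 scale, from 2.00, 3.65 and 7.39 CPM to 12.3, 15.98 and 40.7 CPM. Rcan3, a regulator of calcineurin, rose by 1.57 ± 0.264 and Nfatc1 by 0.93 ± 0.216. Camk2b, a calmodulin-dependent kinase subunit, rose by 0.82 ± 0.222. The other 3, the calcium channel and store sensors Itpr3, Orai1 and Stim2, rose by between 0.64 and 0.66 and fell short of the 1.5-fold cutoff without Wnt5a replicate 1, which left 4 calls.

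Targets and feedback genes of the canonical pathway gave 6 of 17 called higher and none lower, beside 8.29% and 1.88% of all genes, and most of these calls were fragile. Cd44, an adhesion receptor, rose from 72.0, 121 and 127 CPM to 189, 227 and 367 CPM (log2 fold change 1.21 ± 0.195, edgeR adjusted p = 2.831e-05). Rnf43, a ubiquitin ligase that removes Frizzled receptors, rose by 0.62 ± 0.131 and fell short of the 1.5-fold cutoff without complete media replicate 6 (0.57). Axin2, the usual reporter of β-catenin activity, did not pass (32.9 ± 7.13 against 26.1 ± 4.77 CPM, −0.33 ± 0.173, edgeR adjusted p = 0.176), nor did the stem cell receptor Lgr5 (205 ± 55.5 against 170 ± 25.5 CPM, edgeR adjusted p = 0.419). The count was 2 without complete media replicate 6, Wnt5a replicate 1 or Wnt5a replicate 5, 3 without complete media replicate 3 or 5, and 2 by voom. Myc, for one, had a log2 fold change of 0.63 with all libraries, 0.46 (edgeR adjusted p = 0.0717) without Wnt5a replicate 1, and less than the fold cutoff without complete media replicate 3 or Wnt5a replicate 5.

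**Figure D3:**
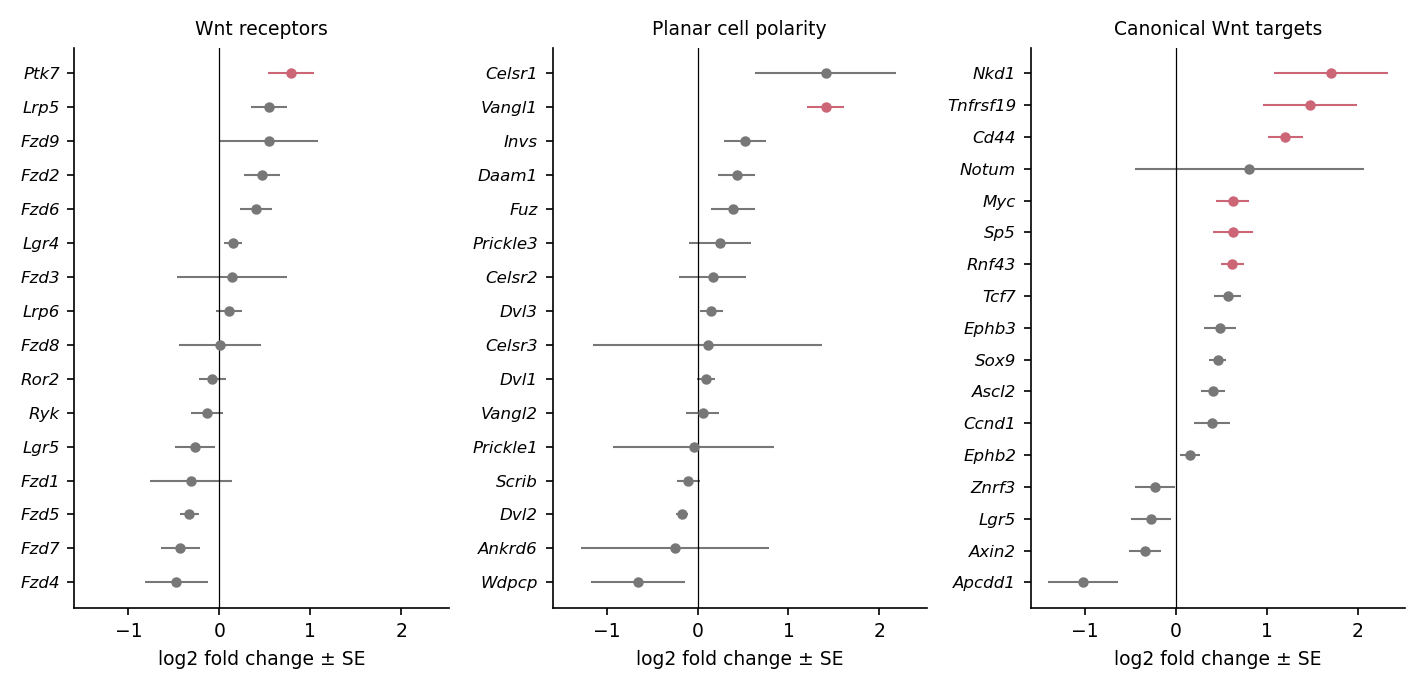
Log2 fold change (Wnt5a + IgG less complete media + IgG, x axis, bars ± SE) of the tested Wnt receptors, planar cell polarity genes and canonical Wnt targets, 1 gene per line, with called genes in red and the others in gray. Ptk7 and Vangl1 are the called receptor and polarity genes, and Axin2 and Lgr5 lie left of 0 by less than 0.35.

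YAP/TEAD targets were mostly higher. Of 18 tested, 13 were called higher and none lower, against 8.29% and 1.88% of all genes, and the median log2 fold change of the list was 1.83 while that of all genes tested was 0.0051. Ccn1, a matricellular protein that is among the most direct YAP targets, had 11.8, 19.3 and 29.8 CPM in complete media and 72.7, 114.5 and 226 CPM in Wnt5a (2.75 ± 0.288, edgeR adjusted p = 1.748e-08). Ccn2, its relative, had 1.75, 8.57 and 22.2 CPM and then 43.6, 69.8 and 192 CPM (3.21 ± 0.525). F3, tissue factor, the initiator of coagulation, had 27.9, 68.0 and 137 CPM and then 535, 713 and 1683 CPM (3.52 ± 0.452). These 3 genes and Myof, a membrane repair protein (2.42 ± 0.394), showed no overlap between the groups, as did 10 of the 18 tested, while 11.7% of all genes tested did so. Amotl2, which binds and restrains YAP and is itself a target, rose by 1.26 ± 0.241. Lats2, the kinase that inactivates YAP, rose by 1.49 ± 0.418 and had an adjusted p of 0.0506 without Wnt5a replicate 1, which left 12 calls. The promoters of Ccn1, Amotl2 and F3 are shown as examples in which the TEAD core or the AP-1 motif can be read. They were chosen after the sequences were searched, and not for the size of their rise.

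The sequences are the 250 bases before the RefSeq transcription start, on the strand of the gene, 5′ to 3′, in GRCm38.p6. Capitals mark the TEAD core GGAATG, here as its complement CATTCC, in Ccn1 (chr3:145649986-145650235, minus strand, first base 103 before the start) and Amotl2 (chr9:102717554-102717803, plus strand, 65 before the start), and the AP-1 motif TGANTCA in F3 (chr3:121723287-121723536, plus strand, 146 and 135 before the start).
Ccn1: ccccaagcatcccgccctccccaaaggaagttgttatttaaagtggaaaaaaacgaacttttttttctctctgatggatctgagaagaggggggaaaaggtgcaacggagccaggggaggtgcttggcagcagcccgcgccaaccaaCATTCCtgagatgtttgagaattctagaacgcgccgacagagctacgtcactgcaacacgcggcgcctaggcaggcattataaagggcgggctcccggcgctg
Amotl2: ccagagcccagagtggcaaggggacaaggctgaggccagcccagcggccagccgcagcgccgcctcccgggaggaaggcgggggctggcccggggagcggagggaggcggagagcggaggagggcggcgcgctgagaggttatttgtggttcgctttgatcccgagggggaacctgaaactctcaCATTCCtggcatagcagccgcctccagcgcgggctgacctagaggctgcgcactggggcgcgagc
F3: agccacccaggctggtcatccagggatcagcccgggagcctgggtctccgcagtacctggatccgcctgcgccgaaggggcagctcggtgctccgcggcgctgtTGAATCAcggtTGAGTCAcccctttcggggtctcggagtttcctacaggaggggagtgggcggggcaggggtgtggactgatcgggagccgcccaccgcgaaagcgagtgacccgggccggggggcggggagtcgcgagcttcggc
Of the 13 called targets 9 had a promoter in the table. The TEAD core occurred on either strand in 3 of them (Amotl2, Ccn1 and Ptpn14) and the AP-1 motif in 1 (F3), so that 5 of the 9 held neither. Over the 13617 promoters of all genes tested that the table held, 11% contained the TEAD core and 4.74% the AP-1 motif in the same window. Only 68.9% of the genes tested had a promoter in the table, 72.7% of those called higher and 74.2% of those called lower, so a comparison of the shares between these groups is void, and the matches are a description of letters only.

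In the Hippo pathway and its TEAD partners 11 of 26 genes tested were called higher and none lower, beside 8.29% and 1.88% of all genes, and 7 higher without Wnt5a replicate 1. Most of the core kinases and their adaptors, among them Lats1, Stk3 and Sav1, were not called by edgeR. Amotl1, a scaffold that binds YAP, rose from 0, 0.735 and 5.69 CPM to 16.4, 22.8 and 49.8 CPM (3.99 ± 0.603). Tead4 rose by 2.09 ± 0.362 and Tead2 by 0.98 ± 0.18 on the log2 scale. Wwtr1, which encodes TAZ, rose by 2.22 ± 0.507, from 0.293, 1.26 and 4.44 CPM to 3.09, 6.73 and 13.4 CPM, with groups that overlapped. Yap1 itself did not pass (64.5 ± 7.81 against 82.1 ± 11.02 CPM, 0.35 ± 0.149, edgeR adjusted p = 0.0953). Vgll4, which competes with YAP for TEAD, had a log2 fold change of −0.47 ± 0.114, short of the fold cutoff.

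Fetal-like and revival genes rose almost without exception. Of 16 tested, 15 were called higher and none lower, beside 8.29% and 1.88% of all genes, with a median change of 1.91 on the log2 scale. The groups did not overlap for 14 of the 16, beside 11.7% of all genes. Besides Clu, all 6 annexins on the list, proteins that bind membrane phospholipids with calcium, rose. Among them, Anxa1 rose from 69.8, 170 and 362 CPM to 506, 699 and 1386 CPM, Anxa5 by 1.81 ± 0.268, Anxa8 by 3.92 ± 0.49 and Anxa10 by 2.34 ± 0.47 on the log2 scale. Msln, mesothelin, a surface glycoprotein, went from 50.1, 120 and 334 CPM to 458, 652 and 1710 CPM. The highest complete media library of Msln lay below the lowest Wnt5a library. S100a6, a calcium-binding protein, rose by 2.03 ± 0.349, and Il1rn, the antagonist of interleukin-1, by 1.57 ± 0.378. Ly6a, which encodes Sca-1, the surface marker of the fetal-like state, rose less (0.87 ± 0.29, edgeR adjusted p = 0.0281) and lost its call without Wnt5a replicate 1 (edgeR adjusted p = 0.0839) and without complete media replicates 2, 3 or 4 in turn. The count was between 13 and 15 with each library left out in turn. Ereg did not pass (0.40 ± 0.354). Like all lists here, it was chosen with results of these data known and is no independent evidence of its direction.

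Of the genes of the stomach lining and the keratins that had enough counts to test, most were also called higher. Of 15 gastric-type genes listed only 6 were tested, and 5 of these were called higher, beside 8.29% of all genes. They were Ctse and Anxa10, already described, Tff1, a trefoil peptide of gastric mucus (4.12 ± 0.84), Vsig1, a gastric junction protein (3.05 ± 0.401), and Gkn3, a gastrokine (2.15 ± 0.263). All 5 had separate groups, beside 11.7% of all genes, but Tff1 held 22 counts in complete media in all. Genes nearly absent from complete media, such as Ctse and Tff1, entered the test through groups where they were higher. The count was between 1 and 6 under the alternatives that kept the fold cutoff, some of which drop genes of low count. Of 16 keratins listed 11 were tested, and 8 of these were called higher, beside 8.29% of all genes. Krt7, a keratin of ductal and fetal epithelia, rose from 378, 608.5 and 1027 CPM to 1310, 1671 and 3367 CPM, and Krt8, a keratin of simple epithelia, from 561, 690.5 and 1048 CPM to 1360, 1447 and 2837 CPM. Both were separate, as were all 8 called keratins, beside 11.7% of all genes, and the log2 fold changes were 1.60 ± 0.275 and 1.25 ± 0.222. Krt6a, a keratin of wounded skin, rose by 3.23 ± 0.656 from a low level. Keratin genes have close relatives and pseudogenes between which reads may have been divided. Of 10 cornification genes tested 4 were called higher, beside 8.29% of all genes, and 3 without Wnt5a replicate 1. Among them were the desmosomal cadherin Dsg3 (2.94 ± 0.651) and Lor, the loricrin of the skin barrier (1.63 ± 0.422).

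**Figure D4:**
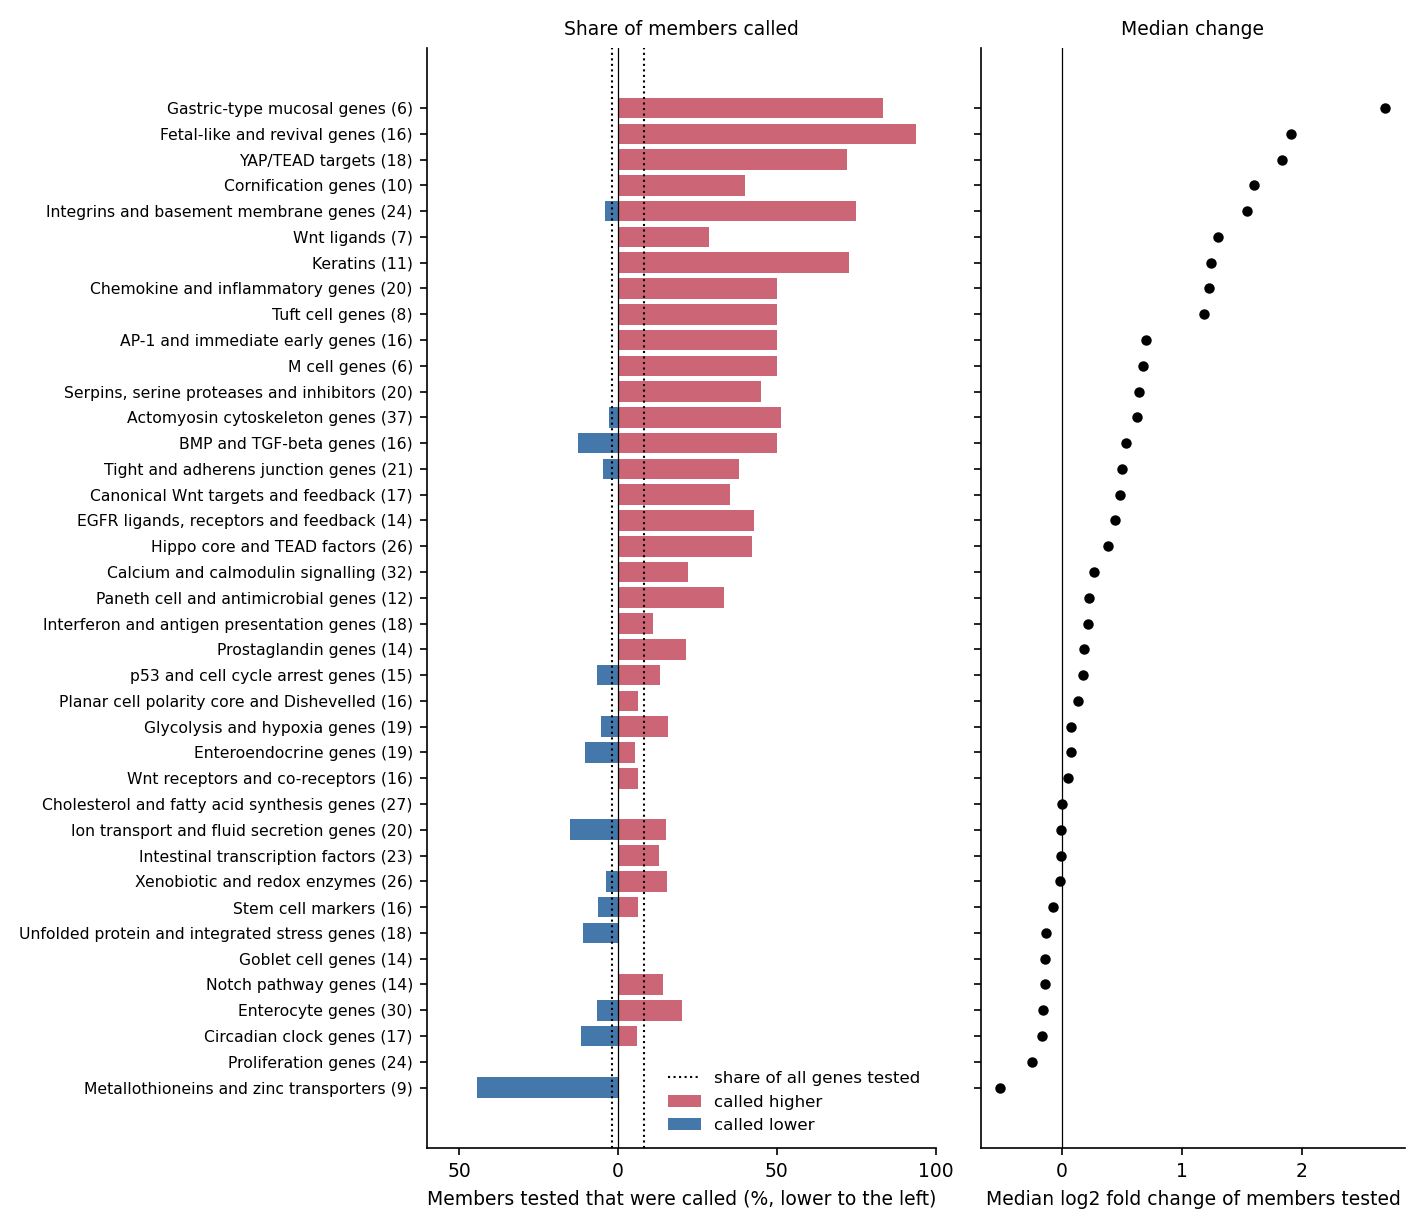
Share of the tested members of 39 gene lists that were called (left panel, in %, higher to the right in red and lower to the left in blue, number tested in brackets) and their median log2 fold change (right panel). Dotted lines mark the share of all genes tested, 8.29% higher and 1.88% lower, and gastric-type, fetal-like and YAP/TEAD lists have the highest medians while metallothioneins and zinc transporters have the lowest.

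Genes for the contact of the epithelium with its basement membrane were mostly higher. Of 24 genes of integrins and basement membrane tested, 18 were called higher and 1 lower, beside 8.29% and 1.88% of all genes. The median change was 1.54 on the log2 scale. Lama3 rose as given, and Lamb3, the β3 chain of laminin-332, the laminin of anchoring contacts, rose by 1.56 ± 0.2. Lamb3 had 127, 149 and 167 CPM in complete media and 314, 362 and 749 CPM in Wnt5a, without overlap. The integrin β4 chain that binds this laminin, Itgb4, rose by 1.38 ± 0.249. Itgb6, the partner of the αv chain in a receptor that activates TGF-β, went from 25.1, 39.3 and 54.0 CPM to 111, 135 and 296 CPM, and Itgb5 rose by 1.67 ± 0.186. Thbs1, thrombospondin-1, a matrix protein that also releases TGF-β, went from 12.8, 21.01 and 33.5 CPM to 113, 151 and 267 CPM (2.97 ± 0.307, edgeR adjusted p = 1.44e-08). Fn1, fibronectin, had 5 counts over the 6 complete media libraries and 6.79, 16.3 and 35.95 CPM in Wnt5a. The groups of Fn1 were separate, its log2 fold change of 7.84 ± 1.04 is imprecise because of the few counts, and the fibroblast markers were near 0 in the same libraries. The 1 lower gene was Ntn4. Without Wnt5a replicate 1, 16 were called higher.

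Actomyosin genes were called higher in 19 of 37 and lower in 1, Mylk3, beside 8.29% and 1.88% of all genes. The changes were smaller, the median on the log2 scale being 0.63, and 12 were called higher without Wnt5a replicate 1. Among those called in either case, Rhob, a small GTPase of endosomes, rose by 2.19 ± 0.264, Cnn2, a calponin, by 1.91 ± 0.316 and Flna, a filamin that crosslinks actin, by 1.62 ± 0.297. Actb, cytoplasmic β-actin, had 1169, 1408 and 2038 CPM in complete media and 2225, 2357 and 4490 CPM in Wnt5a (0.92 ± 0.2), so that this usual reference gene differed between the groups. Of 21 junction genes tested, 8 were called higher and 1 lower, beside the same 8.29% and 1.88%, and 5 higher without Wnt5a replicate 1. Cldn4, a sealing claudin, rose by 2.13 ± 0.332, from 88.55, 167 and 203.5 CPM to 498, 538 and 1107 CPM. Tjp1, the scaffold ZO-1, rose by 0.95 ± 0.162. Cldn15, the channel-forming claudin of the small intestine that passes sodium, fell by 0.77 on the log2 scale, from 273, 325 and 356 CPM to 64.8, 216 and 239 CPM, and its lowest value was that of Wnt5a replicate 1. Of 3 genes of epithelial-mesenchymal transition tested, only Fn1 was called by edgeR, beside 10.2% of all genes. Vim, vimentin, did not pass (3.48 ± 1.77 against 5.42 ± 1.66 CPM), and Zeb1 and Snai2, transcription factors of that transition, had no count.

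Growth factor and early response genes were higher in part. The counts in this paragraph stand beside 8.29% of all genes called higher and 1.88% called lower. Of 14 genes of the EGFR family, its ligands and feedback tested, 6 were called higher. Egfr had 32.6, 39.0 and 49.2 CPM in complete media and 84.8, 108 and 290 CPM in Wnt5a (1.85 ± 0.311). Its ligands Areg, Btc and Hbegf rose by 1.31 ± 0.311, 1.14 ± 0.198 and 0.96 ± 0.223, and its feedback inhibitor Errfi1 by 0.91 ± 0.172. Tgfa, the sixth, had a log2 fold change of 0.48 (edgeR adjusted p = 0.0848) without Wnt5a replicate 1. Of 16 AP-1 and immediate early genes 8 were called higher, among them Fos (1.83 ± 0.353), Junb (1.10 ± 0.212) and Ier3 (1.72 ± 0.299), and 7 without Wnt5a replicate 1. Of 16 BMP and TGF-β genes 8 were called higher, or 7 without Wnt5a replicate 1, and 2 lower. Skil, an inhibitor of SMAD proteins induced by TGF-β, had 11.7, 13.4 and 20.4 CPM and then 43.05, 55.3 and 88.7 CPM (2.14 ± 0.191, edgeR adjusted p = 6.703e-10). The inhibitory Smad7 rose by 2.60 ± 0.351, and the ligand Tgfb1 went from 0.094, 1.21 and 1.88 CPM to 5.175, 6.87 and 11.2 CPM (2.64 ± 0.321). Bmp7 fell by 0.86 on the log2 scale. The BMP-responsive genes Id1 and Id3 moved in opposite directions, with log2 fold changes of 1.05 ± 0.162 and −0.78 ± 0.237.

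Inflammatory mediators made by the epithelium followed. Of 20 chemokine and inflammatory genes tested, 10 were called higher and none lower, beside 8.29% and 1.88% of all genes. Cxcl16 rose from 27.8, 53.6 and 90.2 CPM to 129, 152 and 275 CPM (1.63 ± 0.317). Tnfaip3, the NF-κB inhibitor A20, rose by 1.70 ± 0.22, Tnf by 1.44 ± 0.306 and Il18 by 1.32 ± 0.253. Il33, the least stable of the 10, lost its call without 8 of the 12 libraries in turn, Wnt5a replicate 1 included (edgeR adjusted p = 0.0689). Of 14 prostaglandin genes 3 were called higher, beside 8.29% of all genes, and the median change was 0.19 on the log2 scale. Ptgs2, the inducible cyclooxygenase, had 1.17, 3.38 and 5.06 CPM in complete media and 21.03, 32.4 and 76.2 CPM in Wnt5a (3.55 ± 0.48, edgeR adjusted p = 1.857e-06), and the prostaglandin E2 receptor Ptger4 rose by 1.00 ± 0.201. Of 20 serpins, serine proteases and inhibitors, 9 were called higher, beside 8.29% of all genes, and 6 without Wnt5a replicate 1. Serpinb5, maspin, rose by 2.34 ± 0.396, Wfdc2, a secreted protease inhibitor, by 2.75 ± 0.395, and Prss22, a tryptase-like protease, by 3.23 ± 0.519 from a low level.

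Stem cell genes were called about as often as all genes (10.2%), and no proliferation gene was called by edgeR. Of 16 stem cell markers tested, 1 was called higher and 1 lower. Smoc2, a matrix protein of Lgr5-positive cells, had 1118, 1307 and 1392 CPM in complete media and 461, 905 and 976 CPM in Wnt5a (−0.67 ± 0.169, edgeR adjusted p = 0.00371), with a change short of the 1.5-fold cutoff without Wnt5a replicate 1 (−0.56). Tnfrsf19, the higher one, was at low level and lost its call without 8 of the libraries, Wnt5a replicate 1 included (1.33, edgeR adjusted p = 0.0927). Olfm4, an abundant stem cell gene, did not pass (470 ± 97.9 against 610 ± 203 CPM). Hopx had a log2 fold change of −0.53 ± 0.121, short of the cutoff. None of 24 proliferation genes was called by edgeR, voom or DESeq2, and Mki67 stood at 314 ± 63.5 and 312 ± 25.4 CPM. Yet 22 of the 24 had an estimate below 0, the median on the log2 scale being −0.25, 14 were lower at an unadjusted p under 0.05 and 11 at an adjusted p under 0.05 with no fold cutoff. The median of the list lay between −0.31 and −0.19 under the alternatives, and that of all genes between −0.08 and 0.02.

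Genes of the differentiated lineages were called in both directions. Of 30 enterocyte genes tested, 6 were called higher, or 5 without Wnt5a replicate 1, and 2 lower, beside 8.29% and 1.88% of all genes, with a median of −0.15. Voom on quantile-normalized values called 5 higher and 4 lower. Krt20, a keratin of villus tips, went from 105, 139 and 315 CPM to 504, 606 and 1749 CPM (2.26 ± 0.395). Apob, the apolipoprotein of chylomicrons, rose by 1.29 ± 0.194 and Alpi, intestinal alkaline phosphatase, by 1.02 ± 0.163. Anpep, an aminopeptidase of the brush border, fell by 0.91 on the log2 scale, from 112, 118 and 147 CPM to 26.3, 72.7 and 89.0 CPM, while sucrase-isomaltase, Sis, did not pass (324 ± 122 against 287 ± 75.1 CPM). The second lower gene, Slc6a19, had an adjusted p of 0.0625 without Wnt5a replicate 1, which left 1. Of 12 Paneth cell and antimicrobial genes 4 were called higher, beside 8.29% of all genes. Mmp7, matrilysin, rose by 0.89 ± 0.161, Ang4, an antimicrobial ribonuclease, by 0.85 ± 0.136 and Habp2, a serine protease, by 1.54 ± 0.299, while the lysozyme gene Lyz1 had a log2 fold change of −0.35 ± 0.124, short of the cutoff. The fourth, Reg3b, was called narrowly (edgeR adjusted p = 0.0447) and had an adjusted p between 0.0509 and 0.144 without each of 8 of the libraries.

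The enteroendocrine lineage had falls among its early genes. Neurog3, the transcription factor that commits progenitors to the lineage, had 15.2, 22.04 and 24.4 CPM in complete media and 3.93, 8.41 and 12.6 CPM in Wnt5a, without overlap (−1.33 ± 0.204, edgeR adjusted p = 1.378e-05). Insm1, which acts next, had 8.14, 12.3 and 15.6 CPM and then 3.58, 5.50 and 7.97 CPM (−1.06 ± 0.256). Of the products of mature cells, Chga did not pass (82.7 ± 16.5 against 87.3 ± 15.1 CPM), and the hormone Pyy rose by 1.03 ± 0.257. In all, 1 of 19 genes of this lineage was called higher and 2 lower, in total a share of 15.8% beside the 10.2% of all genes. Of 14 tuft cell genes listed 8 were tested, and 4 of these were called higher, beside 8.29% of all genes. The count was between 1 and 4 under the alternatives that kept the fold cutoff. The actin regulator Avil, advillin, went from 1.33, 2.14 and 4.17 CPM to 7.72, 11.9 and 18.1 CPM (2.35 ± 0.312), and the cyclooxygenase Ptgs1 rose by 3.99 ± 0.69 from 17 counts in complete media. Pou2f3, the factor that specifies tuft cells, did not pass (2.78 ± 1.29 against 2.49 ± 1.55 CPM). Trpm5, the tuft cell cation channel, had an adjusted p of 0.119 without Wnt5a replicate 1, which left 3, and Dclk1 lost its call without 5 other libraries in turn (edgeR adjusted p between 0.0554 and 0.072). Of 6 M cell genes tested 3 were called higher, beside 8.29% of all genes. They were Anxa5, Marcksl1 (0.78 ± 0.171) and Ccl20, a chemokine (0.83 ± 0.274). Ccl20 lost its call without complete media replicates 2, 3 or 6 or Wnt5a replicate 5 (edgeR adjusted p between 0.0581 and 0.113).

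No goblet cell gene of 14 tested was called by edgeR, while voom and DESeq2 each called 1 lower and edgeR called up to 1 higher and 2 lower when single libraries were left out, the most without Wnt5a replicate 2; 1 was higher and 3 lower at an unadjusted p under 0.05, and the mucin Muc2 stood at 36.03 ± 15.8 and 44.1 ± 13.3 CPM. Of 23 intestinal transcription factors 3 were called higher, a share near that of all genes (8.29%): Onecut2, a factor of the proximal intestine (1.84 ± 0.33), Creb3l3, a regulator of lipid metabolism (0.89 ± 0.182), and Gata5 (0.81 ± 0.176). Cdx1, which sets intestinal identity, had a log2 fold change of −0.50 ± 0.0893 (edgeR adjusted p = 9.574e-05), short of the fold cutoff, and Cdx2 did not pass (237 ± 52.8 against 206 ± 36.1 CPM).

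Metallothioneins and zinc transporters had a median log2 fold change of −0.51, the lowest of the 39 lists with 6 or more members tested. Of these genes 4 of 9 were called lower and none higher, beside 1.88% and 8.29% of all genes, and 3 lower without Wnt5a replicate 1. Mt1, a zinc-binding protein induced by zinc, had 4897, 7052 and 7391 CPM in complete media and 1563, 3863 and 5224 CPM in Wnt5a (−0.85 ± 0.197, edgeR adjusted p = 0.00191). Mt2 had 1296, 1823 and 2067 CPM and then 364, 945 and 1254 CPM (−0.97 ± 0.217). The groups overlapped for Mt1 and not for Mt2. The zinc importer Slc39a8 fell by 0.76, and Slc39a5 by 0.64 with all libraries and 0.48, short of the fold cutoff, without Wnt5a replicate 1. Among 20 genes of ion transport and fluid secretion 3 were called higher and 3 lower, beside 8.29% and 1.88% of all genes. Ano1, the calcium-activated chloride channel, went from 24.6, 45.3 and 82.3 CPM to 178, 226 and 539 CPM (2.49 ± 0.327), and Clic3, a chloride channel family member, rose by 2.57 ± 0.537. The water channel Aqp4 fell by 0.87 on the log2 scale. Aqp1 and the anion exchanger Slc26a3 had edgeR adjusted p values of 0.0809 and 0.0676 without Wnt5a replicate 1, which left 1 lower gene. Aqp1 was also lost without Wnt5a replicate 5, and Slc26a3 without complete media replicates 2 or 4.

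Some of these genes were higher with the ligand than with the medium of senescent fibroblasts, which holds many secreted factors. In the same model, 46 genes were called higher and 61 lower in Wnt5a + IgG than in SCM + IgG (0.69% of the genes tested). Among the 199 named or listed genes called higher than in complete media, 14 were also called higher than in SCM and 1 lower, and of the 32 called lower than in complete media 1 was called lower than in SCM. Fn1 showed the largest of these differences, with 0, 0.049 and 1.29 CPM in SCM (Wnt5a less SCM 5.97 ± 0.859, edgeR adjusted p = 0.0015). Ctse had 1.28, 7.53 and 18.3 CPM in SCM, all below the lowest Wnt5a library (2.77 ± 0.594, edgeR adjusted p = 0.0156). Clu had 604, 1093 and 1979 CPM in SCM, likewise below every Wnt5a library (1.64 ± 0.407, edgeR adjusted p = 0.0273), and Ccn1 had 34.3, 62.8 and 94.0 CPM (1.00 ± 0.268, edgeR adjusted p = 0.0353). Id1 went the other way, with 24.4, 30.6 and 33.3 CPM in SCM (−0.63 ± 0.157), and Insm1 had 8.43, 11.55 and 16.3 CPM in SCM (−1.08 ± 0.255). Both comparisons use the Wnt5a libraries, and their values are not independent.

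**Figure D5:**
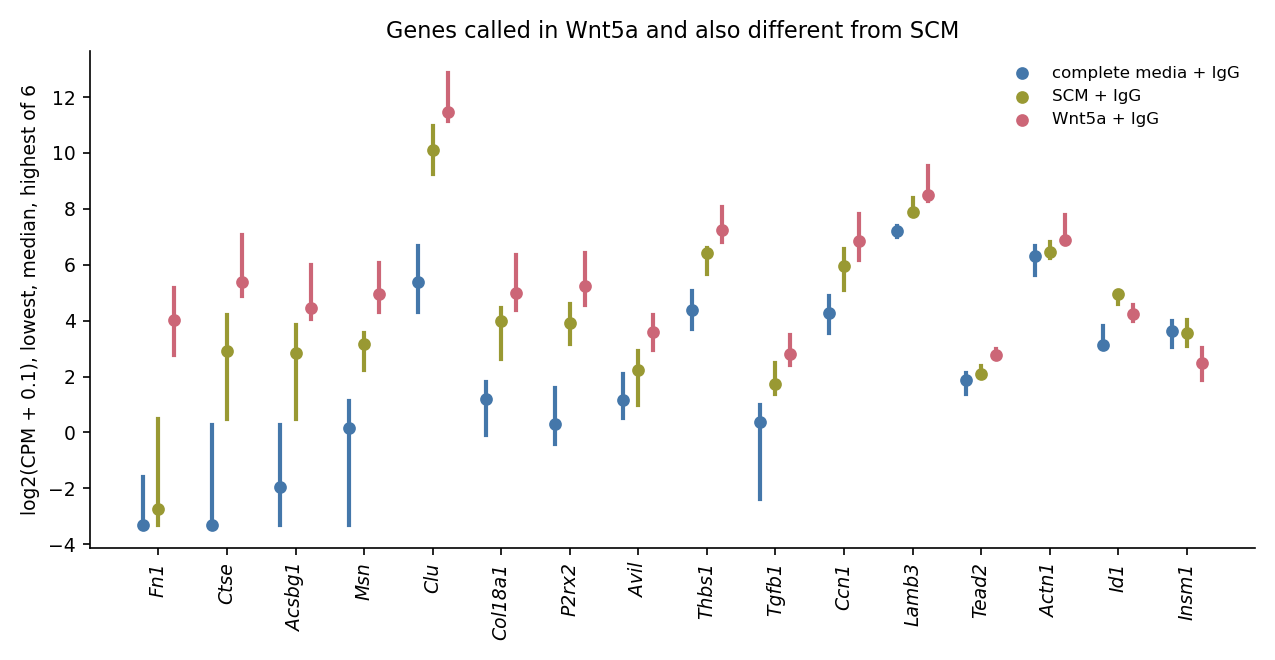
Level of the 16 named or listed genes that were called in Wnt5a + IgG against complete media + IgG and also against SCM + IgG (log2 of CPM + 0.1, y axis), with the median of 6 libraries as a point and the lowest and highest as a bar, in blue for complete media, olive for SCM and red for Wnt5a. For Clu, Ctse and Fn1 the red bar lies above the olive bar without overlap, and Id1 and Insm1 are the genes with a red median below the olive one.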

How the data were processed

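RNA from organoid cultures was sequenced after SMART-Seq v4 amplification and Nextera XT library preparation. The authors aligned reads with GSNAP (version 2013-11-01, per the processing notes) to mm10 and deposited one count per gene and library, as whole numbers without normalization, from reads within coding sequences; the gene annotation and the use of strand are not given in the sources used here. Libraries were assigned to groups from their labels. A table of all libraries held the same counts and was not used.

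In R 4.3.3, genes were kept with filterByExpr of edgeR 4.0.16 (15497 of 52636), scaled by TMM and tested by the quasi-likelihood test in one model of 36 libraries and 6 condition means, with Benjamini-Hochberg adjustment over all genes tested and genes were called below 0.05 when the change also exceeded 1.5-fold. Errors of log2 fold changes are SE. Levels are CPM with TMM scaling, given as lowest, median and highest of 6 libraries, or as mean ± SD. Symbols and positions are those of GENCODE on GRCm38, and 147 genes had no symbol. Promoters are RefSeq sequences. The genes named are Ptk7 and Wnt5a, the 15 genes that rose and the 10 that fell most among those called with separate groups and a mean log2 CPM over 1, and called or defining members of the lists. Reads of genes with many near-identical copies may be missing: Gapdh and Actg1 had few counts. The members and lists were chosen with earlier results of these data known, and no list was tested. Intervals of counting error are smaller than the spread between replicates at these depths. The alternatives were voom with limma 3.58.1, DESeq2 1.42.0, other scalings, filters and cutoffs, a replicate block and each library left out.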

Additional observations from a re-analysis of the deposited data

Results flagged for a closer look

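In 298 groups of 6 values, from 146 genes, the library totals and 2 principal components, 29 had 1 library farther from its nearest neighbor, as a share of the range of the group, than Dixon's 95% critical value. Chance alone would give about 1 in 20 groups, fewer than were seen, but the groups are not independent, since the same libraries enter all of them. In the Wnt5a libraries, replicate 1 was the library apart in 12 of them. It lay high on the second principal component (0.835) and for Tagln2 (0.786), Jag1 (0.776), Hk1 (0.708) and Ptk7 (0.638), and low for Aldh1a7 (0.862), Slc39a5 (0.787), Slc26a3 (0.765), Cldn15 (0.74), Mt1 (0.714), Mt2 (0.7) and Ugt2b5 (0.64). The other 2 in that group were Trib3, low in replicate 2 (0.797), and Ccl20, high in replicate 5 (0.66).

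In complete media, replicate 1 was high for Wnt7b (1), Basp1 (1) and Hbegf (0.655) and low for Slc39a8 (0.931) and Mt1 (0.71). A value of 1 arises because the other 5 libraries held no count of that gene. Replicate 2 was low for Tgfb1 (0.697), Gdf15 (0.671) and Amotl2 (0.645). Replicate 3 was high for Id1 (0.811) and Usp2 (0.662) and low for Wnt7a (0.738), Il18 (0.65) and Vsig1 (0.629), and replicate 6 was low for Neurog3 (0.698) and Slc6a19 (0.658). Mt1 was thus lowest in replicate 1 of both groups. Whether any of these libraries differ for a technical reason was not tested.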

How the results depend on the processing

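Of the named or listed genes, none called by edgeR as first fitted changed the sign of its estimate under an alternative, whereas estimates of genes that were not called could cross 0, as could the medians of short lists, such as that of the Wnt ligands, between −0.54 and 1.71. Of the 15 rising genes, 15 were called under every alternative that tested them, and of the 10 falling genes 8 were; of the 231 called genes that are named or listed, 60 lost their call under some alternative other than a cutoff of 2-fold. The 1285 genes called higher became 1930 without a fold cutoff and 775 with a cutoff of 2-fold, and the 291 called lower became 1456 and 75. By voom on quantile-normalized values 562 were lower, and the median log2 fold change of all genes was then −0.0841 against 0.0051. Leaving out each complete media library in turn gave 1137 to 1355 higher and 261 to 309 lower, and each Wnt5a library 987 to 1411 higher and 182 to 349 lower, the lowest without replicate 1. Leaving out both libraries numbered 1, an alternative chosen after seeing the data, gave 1032 higher and 180 lower.

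The replicate block gave 1336 higher and 370 lower, of which 1252 and 286 were among those of the model without it. The number, which no label ties to a mouse, was not taken as pairing the samples in the main model. Same-numbered libraries of the 2 groups had correlations of their deviations from the group means between 0.0182 and 0.249, with 1 of 6 over 0.1. The mean correlation was 0.0861 for the same number and −0.018 for different numbers, and 3 of 6 complete media and 4 of 6 Wnt5a libraries correlated best with their own number. The genes called higher also had their highest mean log2 CPM in number 1, the next in number 5 and the lowest in number 3 in both groups (3.43, 3.25 and 2.70 in complete media and 5.12, 4.77 and 4.24 in Wnt5a), and the same held in the other 4 conditions. The whole order by number was the same in complete media, Wnt5a + IgG, QCM + IgG and SCM + IgG. The number thus followed a difference shared between conditions, which the main model leaves in the spread behind its errors and p values. With the block, cornification genes called higher went from 4 to 7. In a window of 150 bases before the start, 6.21% of the promoters of all genes tested held the TEAD core and 2.97% the AP-1 motif, and shares between gene groups were not compared there either. Depth limits the genes with under about 20 counts in complete media, whose fold changes are imprecise.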

Other observations

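Counts for metabolic, stress and other genes are read against the 8.29% called higher and 1.88% called lower of all genes tested. Of 27 genes of cholesterol and fatty acid synthesis tested none was called by edgeR, voom or DESeq2, with 2 higher and 6 lower at an unadjusted p under 0.05. Of 19 glycolysis and hypoxia genes 3 were called higher and 1 lower, and 1 and 0 without Wnt5a replicate 1. Hk1, a hexokinase, was the stable one (1.59 ± 0.306, edgeR adjusted p = 0.000261), while Slc2a1, the glucose transporter, had an adjusted p of 0.0604 without that library. Of 18 genes of the unfolded protein and integrated stress responses 2 were called lower, Trib3 (−0.59 ± 0.149) and Sesn2 (−0.59 ± 0.105), both close to the 1.5-fold cutoff and short of it without several single libraries, with Trib3 alone left without Wnt5a replicate 1. Of 15 p53 and cell cycle arrest genes 2 were called higher, the inhibitor Cdkn2b (1.23 ± 0.203) and the kinase Plk2 (0.99 ± 0.175), and 1 lower, the secreted factor Gdf15 (−0.88 ± 0.217), while Cdkn1a did not pass (222 ± 47.2 against 258 ± 37.6 CPM).

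Of 14 Notch pathway genes 2 were called higher, Notch2 (1.35 ± 0.328) and the ligand Jag1 (0.95 ± 0.23), and Hes1, a Notch target, did not pass (92.9 ± 14.4 against 80.5 ± 9.79 CPM). Of 18 interferon and antigen presentation genes 2 were called higher, the transcription factors Irf1 (0.96 ± 0.187) and Irf9 (0.94 ± 0.252). Of 17 circadian clock genes 1 was called higher, the repressor Bhlhe40 (0.81 ± 0.132), and 2 lower, the deubiquitinase Usp2 (−1.26 ± 0.305) and the repressor Ciart (−0.75 ± 0.209). Of 26 xenobiotic and redox enzymes 4 were called higher and 1 lower. Hmox1, heme oxygenase, went from 7.90, 11.04 and 20.7 CPM to 20.95, 27.2 and 39.9 CPM (1.19 ± 0.272), and the other 3 higher genes belong to the Cyp3a and Ugt2b families, between whose copies reads may have been divided, with 1 higher and 2 lower genes without complete media replicate 3, 3 higher without Wnt5a replicate 1 and 2 higher without Wnt5a replicate 4 or 5. Endothelial, smooth muscle and red cell markers were too low to test. The 1 neural marker tested was not called, and the summed level of that list was at most 2.44 CPM.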
